A study of Mus musculus with 16 samples.

Results

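The 10 arrays of microdissected organ of Corti (OC) at P5, among 16 arrays in the whole series, were compared by the replicate number in their names. Replicates 1 and 2 (2 Tg1MDW/1MDW and 2 WT arrays) formed 1 set and replicates 3, 4 and 5 (3 Tg1MDW/1MDW and 3 WT arrays) the other. All mice were FVB/NCrl. Homozygous Tg(GFAP-Mir183,Mir96,Mir182)1MDW mice carry the miR-183 cluster under the human GFAP core promoter. At P18, the study detected miR-182 by in situ hybridisation in supporting cells of the OC, the spiral limbus and Schwann cells of these mice. At P5, it could not detect misexpression of the cluster by in situ hybridisation, so the cell types that express the transgene at this age were not shown. Its P5 arrays, the same as those used here, did read the probesets of the 3 miRNAs higher in these mice than in WT. The line descends from 1 founder. The remaining 6 arrays hold cochlea at P18, 3 of each genotype, and give levels set beside those at P5. They also enter the tests of genotype, where they share the estimate of the spread. The titles name the arrays biological replicates, and whether an array holds RNA of 1 pup or of a pool is not given in the sources used here.

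The division into replicates 1 and 2 and replicates 3 to 5 was proposed with values of these arrays known. Differences between the sets are therefore described without a test. Each is the mean of the differences within the 2 genotypes, on the log2 scale, with a standard error from a fit of genotype and set to the 10 arrays. A probeset was called when this mean difference was at least 1.5-fold and when, in each genotype, both arrays of replicates 1 and 2 lay on the same side of all 3 arrays of replicates 3 to 5. The effect of genotype and its interaction with set were tested. Both contrasts are orthogonal to the set difference, since each set holds equal numbers of both genotypes, but these tests too were chosen with earlier results of the arrays known.

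The OC is a strip of sensory epithelium in which hair cells stand among supporting cells, beneath an acellular gel, the tectorial membrane, whose collagens and tectorins are secreted by neighbouring epithelial cells during early postnatal life. Around the epithelium lie the fibrocytes of the spiral ligament and limbus, the spiral ganglion with its Schwann cells, and an otic capsule that passes from cartilage to bone. Microdissection separates these tissues to a varying degree. In such bulk RNA, fewer cells of a type and less RNA per cell cannot be told apart.

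The transgene separated the genotypes in both sets. Its 3 miRNAs are shown with their seeds (bases 2 to 8) in capitals, since they define the transgenic group. Sequences and coordinates are from RefSeq on GRCm38.p6.
mmu-miR-182-5p, chr6:30165962-30165986 (minus strand): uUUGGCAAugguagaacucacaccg
mmu-miR-96-5p, chr6:30169506-30169528 (minus strand): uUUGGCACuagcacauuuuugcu
mmu-miR-183-5p, chr6:30169711-30169732 (minus strand): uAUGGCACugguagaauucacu
The probeset of *Mir96* read 8.64 and 8.2 in Tg1MDW/1MDW replicates 1 and 2, and 8.51, 8.04 and 8.07 in replicates 3 to 5. In WT it read 4.61 and 4.88 in replicates 1 and 2, and 4.92, 5.10 and 4.94 in replicates 3 to 5. The sets overlapped in Tg1MDW/1MDW, whereas in WT both arrays of replicates 1 and 2 lay below the other 3, by a small margin. The platform annotation used here names this probeset (10543682) *Mir96* and probeset 10543680 *Mir182*, and the study names them the other way round. None of the 4 probesets of transgene elements (*Mir182*, *Mir96*, *Mir183* and the *Prm1* sequence of the construct) was called between the sets, and their median difference was 0.05.

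The markers of the OC itself were present on every P5 array. *Myo7a*, the myosin of hair cell stereocilia, lay between 6.98 and 7.19 in replicates 1 and 2 and between 7.34 and 7.50 in replicates 3 to 5. *Pou4f3*, a hair cell transcription factor, ranged from 7.52 to 7.94 and from 7.71 to 8.20. *Sox2*, a transcription factor of supporting cells, ranged from 9.76 to 10.07 and from 9.98 to 10.21. Only *Myo7a* was separated between the sets, and none of the 3 reached the fold limit. Array medians lay between 6.51 and 6.63, and correlations between P5 arrays between 0.973 and 0.992. With genotype means removed, Tg1MDW/1MDW replicate 3 lay farthest out on the leading principal component (29.5% of the variance) and WT replicate 2 on the next (22.7%). The leading component did not divide the sets. On the next, replicates 1 and 2 lay at -0.11 to 0.69 and replicates 3 to 5 at -0.37 to 0.05, without overlap in Tg1MDW/1MDW and with overlap in WT. Y-linked genes were high on 2 of the 4 arrays of replicates 1 and 2 and on 3 of the 6 arrays of replicates 3 to 5, namely on Tg1MDW/1MDW replicate 1 and WT replicates 2 to 5.

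Of 34760 probesets, 267 (0.768%) were higher and 181 (0.521%) were lower in replicates 1 and 2. These shares follow from the way the sets were chosen and support nothing. With 1 probeset for each of 19937 genes, 146 genes (0.732%) were higher and 149 (0.747%) lower. The median difference over all genes was -0.03. Without the fold limit, 1205 probesets (3.47%) lay higher and 1657 (4.77%) lower in replicates 1 and 2 with no overlap in either genotype. Genes without overlap numbered 826 (4.14%) higher and 1345 (6.75%) lower, or 10.9% in all. Of the 448 called probesets (1.29%), 130 have no gene name here and 7 have several. Identifiers below the lowest one with a gene name belong to 6573 probesets, 73 of them called higher and 13 lower. Without these probesets, the counts were 194 higher and 168 lower. Among all those called, the median gap between the difference in Tg1MDW/1MDW and that in WT was 0.19 and the largest 1.54. The rule itself favours a small gap. Over all probesets, the Pearson correlation between the 2 differences was 0.46. Without Tg1MDW/1MDW replicate 3 and WT replicate 2, the arrays that stood apart, the counts were 335 higher and 192 lower.

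**Figure D1:**
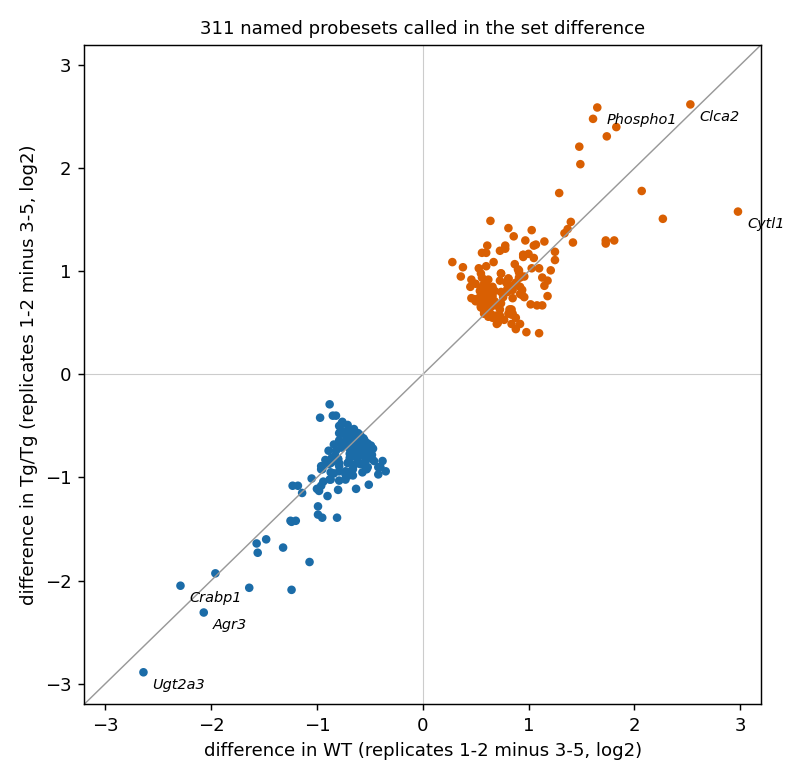
Difference between the sets (replicates 1 and 2 minus replicates 3 to 5, log2) in WT (x axis) against that in Tg1MDW/1MDW (y axis), 1 point for each of the 311 called probesets with 1 gene name; orange, higher in replicates 1 and 2, blue, lower. The rule places every point on the same side of 0 in both genotypes; *Ugt2a3* at -2.64 and -2.89 and *Clca2* at 2.53 and 2.62 lie at the ends near the diagonal, and *Cytl1* at 2.98 and 1.58 lies off it.

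Genes of bone formation carried the largest list difference. Osteoblasts lay down a collagen matrix and mineralise it with phosphate released by phosphatases inside matrix vesicles. Of 13 measured genes of bone and osteoblasts, 10 were higher in replicates 1 and 2 and none was lower, with a median difference of 1.07, against -0.03 over all genes. The mean of the list was 8.25 to 8.63 on the 4 arrays of replicates 1 and 2 and 7.07 to 7.43 on the 6 arrays of replicates 3 to 5, and it was 9.60 to 9.71 at P18. Each array of replicates 1 and 2 thus lay above each of replicates 3 to 5 and below each P18 array. The median was 1.42 in Tg1MDW/1MDW and 0.81 in WT. On leaving out any 1 array, 9 or 10 of the 13 were called.

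*Sp7*, which encodes osterix, a transcription factor required for osteoblasts, read 8.28 and 8.65 in Tg1MDW/1MDW replicates 1 and 2 and 6.47, 6.11 and 6.18 in replicates 3 to 5. In WT it read 8.18 and 7.80 against 6.44, 6.60 and 6.49. The sets did not overlap, and the difference was 1.85 (standard error 0.18), or 3.60-fold. *Dlx5*, a homeobox gene that acts upstream in the same lineage, was also higher, at 9.48 to 9.78 against 8.24 to 8.81. *Dlx6* differed by 0.53, below the fold limit, although its sets did not overlap within either genotype.

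The matrix protein bone sialoprotein, encoded by *Ibsp*, read 11.99 and 12.19 in Tg1MDW/1MDW replicates 1 and 2 against 9.40, 9.52 and 9.93, and 11.74 and 11.83 in WT against 9.93, 10.28 and 10.31. The 4 arrays of replicates 1 and 2 lay above the other 6, and at P18 the gene was at 12.41 to 12.51. The difference was 2.05 (standard error 0.21), or 4.13-fold. *Col1a1*, the major collagen chain of bone and other connective tissue, ranged from 9.21 to 9.87 in replicates 1 and 2 and from 8.50 to 8.97 in replicates 3 to 5. It was called higher by 0.81 (standard error 0.16). *Phex*, *Ifitm5*, *Pth1r* and *Dmp1*, genes of osteoblasts and osteocytes, were called higher by 1.07, 1.11, 0.73 and 0.60.

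Enzymes and channels of mineralisation showed some of the widest gaps. *Alpl*, tissue-nonspecific alkaline phosphatase, read 9.09 and 9.53 in Tg1MDW/1MDW replicates 1 and 2 against 7.89, 7.47 and 7.30, and 9.12 and 9.07 in WT against 7.59, 7.97 and 7.86. *Phospho1*, the phosphatase that works inside matrix vesicles, read 8.24 and 8.54 against 5.80, 5.75 and 5.84 in Tg1MDW/1MDW, and 8.19 and 8.0 against 6.25, 6.49 and 6.57 in WT. Their differences were 1.52 (standard error 0.17) and 2.12 (standard error 0.20). *Smpd3*, neutral sphingomyelinase 2, whose loss in mice impairs skeletal mineralisation, differed by 2.02 (standard error 0.15), and *Sgms2*, sphingomyelin synthase 2, by 1.76 (standard error 0.17). *Panx3*, a pannexin channel of osteoblasts and chondrocytes, differed by 2.12 (standard error 0.24), and *Slc13a5*, a citrate transporter, by 1.92 (standard error 0.19). None of the sets of these genes overlapped. In a list of mineralisation enzymes and transporters drawn up after the values were seen, the others (*Ank*, *Slc20a1*, *Slc20a2*, *Anxa2*, *Anxa5*, *Anxa6* and *Mgp*) were not called.

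The remaining members of the bone list, *Mepe* and *Mmp13*, overlapped between the sets. *Mepe*, a gene of osteocytes, lay at 3.83 to 4.24 on all P5 arrays, below the lower quartile of each array, whereas it was 7.23 to 7.58 at P18. *Mmp13*, a collagenase of hypertrophic cartilage and bone, lay at 5.0 to 6.07 at P5 and at 9.81 to 10.13 at P18. In the list of macrophages and osteoclasts, *Acp5*, the acid phosphatase of osteoclasts, read 7.12 to 8.79 in replicates 1 and 2 and 6.72 to 8.72 in replicates 3 to 5. The 27 genes of that list gave no call and a median of 0.18, with 24 of them above 0. With no fold limit, 4 lay higher and none lower without overlap, beside 4.14% and 6.75% of all genes.

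RUNX transcription factors drive osteoblast genes through the motif TGTGGT. This motif was searched on both strands of RefSeq promoters (250 bases before to 50 after each start, GRCm38.p6), and 16.8% of all 32851 promoters held it. Of 12 promoters found for 8 genes of the bone list, 3 (25%), 1 each of *Dmp1*, *Mepe* and *Mmp13*, held it, as did 2 of 9 promoters (22.2%) of the tectorial membrane list. The windows are shown with the motif or its complement in capitals to set the 1 called gene beside the 2 that were not.
Dmp1, chr5:104202441-104202470 (plus strand): agtcatttgagaACCACAagagctttttag
Mepe, chr5:104325237-104325266 (plus strand): taccatacccccTGTGGTcatctgtgggca
Mmp13, chr9:7272384-7272413 (plus strand): attctgccacaaACCACActtaggaagaaa
A match is a description of letters, and the promoters of the more widely separated genes that were found held none in this window. *Mepe* holds another match on the other strand, not shown.

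**Figure D2:**
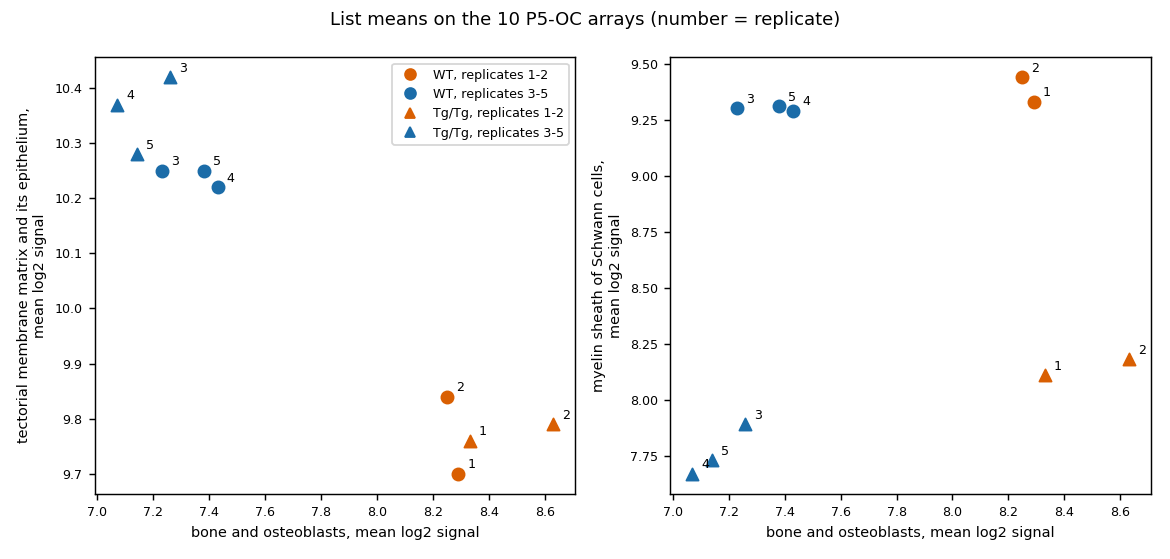
Mean log2 signal of the bone list (x axis) against that of the tectorial membrane list (left) and the Schwann cell myelin list (right) on the 10 P5-OC arrays; circles, WT, triangles, Tg1MDW/1MDW, orange, replicates 1 and 2, blue, replicates 3 to 5. The bone mean is 8.25 to 8.63 against 7.07 to 7.43 and the tectorial mean 9.70 to 9.84 against 10.22 to 10.42, while the myelin mean is divided by genotype.

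Cartilage matrix genes lay mostly higher in replicates 1 and 2, with 17 above 0 and 4 below. With no fold limit, 10 lay higher and 2 lower without overlap, beside 4.14% and 6.75% of all genes. Of 21 genes, 5 were called higher (*Chad*, *Scrg1*, *Acan*, *Col11a1* and *Ucma*) and 1 lower (*Matn1*), with a median of 0.24. *Acan*, the large aggregating proteoglycan of cartilage, read 8.74 and 8.74 against 7.90, 7.83 and 7.70 in Tg1MDW/1MDW, and 9.05 and 8.89 against 8.06, 8.23 and 8.18 in WT. *Matn1*, cartilage matrix protein, read 6.86 and 6.70 against 8.57, 8.17 and 7.84 in Tg1MDW/1MDW, and 7.25 and 6.64 against 8.22, 8.17 and 8.06 in WT. The 2 genes were separated in opposite directions, by 0.87 (standard error 0.06) and -1.31 (standard error 0.17). *Col2a1*, the main collagen of cartilage, differed by 0.36 and was not called. *Sox9*, its transcription factor, differed by 0.04. *Cytl1*, a cytokine-like protein secreted by chondrocytes, read 10.88 and 10.69 against 8.98, 9.49 and 9.14 in Tg1MDW/1MDW, and 11.24 and 9.85 against 8.34, 7.15 and 7.20 in WT. Its difference of 2.28 was the next largest among named genes higher in replicates 1 and 2, and its standard error of 0.44 was large.

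Some fibrocyte genes were higher in replicates 1 and 2. Of 13 genes of otic mesenchyme and fibrocytes, 3 were called higher (*Coch*, *Emilin2* and *Car3*), none was called lower and the median was 0.30. Without the fold limit, 5 lay higher and 2 lower with no overlap. *Coch*, which encodes cochlin, an abundant protein of the spiral ligament and limbus, read 11.30 and 11.29 against 10.43, 10.21 and 10.43 in Tg1MDW/1MDW, and 11.29 and 11.45 against 10.44, 10.49 and 10.42 in WT. At P18 it was 12.77 to 13. The difference at P5 was 0.93 (standard error 0.05), or 1.91-fold. The median of the list was 0.14 in Tg1MDW/1MDW and 0.31 in WT.

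General connective tissue matrix gave a median of 0.02 over 44 genes, with 3 called higher (*Ogn*, *Col1a1* and *Lox*) and 2 lower (*Vcan* and *Tnc*). Lysyl oxidase (*Lox*), which cross-links collagen, differed by 0.77 (standard error 0.05). Versican (*Vcan*) and tenascin C (*Tnc*), matrix glycoproteins of developing tissues, differed by -0.84 (standard error 0.12) and -0.82 (standard error 0.08). With no fold limit, 10 of the 44 lay higher and 6 lower without overlap, beside 4.14% and 6.75% of all genes. The median of the list was thus near that of all genes, but single matrix genes were separated, in both directions.

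The gene with the largest positive difference belongs to none of these lists. *Clca2*, a member of the calcium-activated chloride channel regulator family, read 8.67 and 8.82 in Tg1MDW/1MDW replicates 1 and 2 and 6.26, 6.03 and 6.08 in replicates 3 to 5. In WT it read 8.99 and 8.77 against 6.34, 6.33 and 6.38. The spread within a set was small beside the gap, and the difference was 2.57 (standard error 0.07), or 5.95-fold. At P18 the gene was at 8.85 to 9.41. Also among the 15 largest were *Scg2*, a granin of secretory vesicles (1.89, standard error 0.27), *Slc10a4*, a vesicle protein of the bile acid transporter family (1.56, standard error 0.27), *Car12*, a carbonic anhydrase (1.51, standard error 0.22), *Fndc1* (1.5, standard error 0.15) and *Prss36*, a serine protease (1.44, standard error 0.11).

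Of 10 genes of the tectorial membrane and of its epithelium, 4 were called lower (*Crabp1*, *Tecta*, *Calb1* and *Zpld1*) in replicates 1 and 2 and none higher, with a median of -0.44. *Tecta* was itself a marker by which the division was proposed. The mean of the list was 9.70 to 9.84 in replicates 1 and 2 and 10.22 to 10.42 in replicates 3 to 5. *Tecta*, which encodes alpha-tectorin, a major non-collagenous protein of the tectorial membrane, read 11.41 and 11.56 against 12.56, 12.49 and 12.35 in Tg1MDW/1MDW, and 11.52 and 11.93 against 12.35, 12.40 and 12.42 in WT. Its difference was -0.82 (standard error 0.10), or 1.77-fold. At P18 it was far lower, at 6.5 to 7.38.

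*Crabp1*, a cellular retinoic acid binding protein, read 7.55 and 7.35 against 10.17, 9.50 and 8.82 in Tg1MDW/1MDW, and 7.37 and 6.85 against 9.35, 9.37 and 9.46 in WT. Its difference of -2.17 (standard error 0.26) was the largest of the list. *Zpld1*, a protein with a zona pellucida domain, read 6.55 and 6.74 against 7.51, 7.13 and 7.15, and 6.47 and 6.70 against 7.33, 7.17 and 7.26. Other matrix proteins of the tectorial membrane differed less. *Otog* (-0.54) and *Otogl* (-0.35) were below the fold limit, *Tectb*, which encodes beta-tectorin, differed by -0.09, and *Ceacam16* and *Epyc* by 0.15 and 0.17. The 2 tectorins therefore differed by unequal amounts between the sets.

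Of 37 hair cell genes, 3 were called lower (*Grxcr2*, *Rasd2* and *Chrna10*) and 1 higher (*Dner*), with a median of -0.17 and 30 genes below 0. *Grxcr2*, a protein of stereocilia, read 7.53 and 7.55 against 8.87, 8.62 and 8.48 in Tg1MDW/1MDW, and 7.69 and 7.79 against 8.70, 8.40 and 8.50 in WT. *Chrna10*, a subunit of the acetylcholine receptor at efferent synapses, differed by -0.78 (standard error 0.10). *Dner*, a transmembrane protein with epidermal growth factor repeats, differed by 0.73 (standard error 0.13).

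Of 22 supporting cell genes, 1 was called. *Jag1*, a Notch ligand of supporting cells, read 9.64 and 9.61 against 10.76, 10.58 and 10.38 in Tg1MDW/1MDW, and 9.64 and 10.07 against 10.52, 10.61 and 10.64 in WT. It was lower by 0.84 on the log2 scale (difference -0.84, standard error 0.11). The median of the list was -0.18. General epithelial genes, 36 in all, gave 3 lower calls (*Cldn6*, *Tmem30b* and *Krt18*) and a median of -0.23. *Cldn6*, a tight junction claudin, differed by -0.91 (standard error 0.07). Epithelial lists thus lay below the median of all genes, with most members under the fold limit.

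*Ugt2a3*, a glucuronosyltransferase, read 3.74 and 3.59 against 6.90, 6.76 and 6.01 in Tg1MDW/1MDW, and 3.69 and 3.97 against 6.35, 6.48 and 6.59 in WT. In replicates 1 and 2 it lay below the lower quartile of the arrays, as it did at P18 (3.27 to 3.51). Its difference was -2.76 (standard error 0.19), a size that depends on this low signal, for which no detection call was used here. *Agr3*, of the protein disulfide isomerase family, read 5.87 and 6.05 against 8.37, 8.25 and 8.19, and 6.02 and 6.43 against 8.50, 8.06 and 8.32. *Podn* (podocan, a leucine-rich proteoglycan) and *Chst15* (a chondroitin sulfate sulfotransferase) differed by -1.95 (standard error 0.17) and -1.85 (standard error 0.12). The 3 probesets of *Pappa2*, a protease that cleaves binding proteins of insulin-like growth factors, differed by -1.66, -1.60 and -1.5. *P4ha2*, a collagen prolyl hydroxylase, differed by -1.64 (standard error 0.17), *Cdh4*, R-cadherin, by -1.54 (standard error 0.11), *Gpr50*, a melatonin-related receptor, by -1.34 (standard error 0.12), *Adamts16*, a metalloprotease, by -1.33 (standard error 0.13), and *Adgrg2*, an adhesion receptor, by -1.17 (standard error 0.13).

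**Figure D3:**
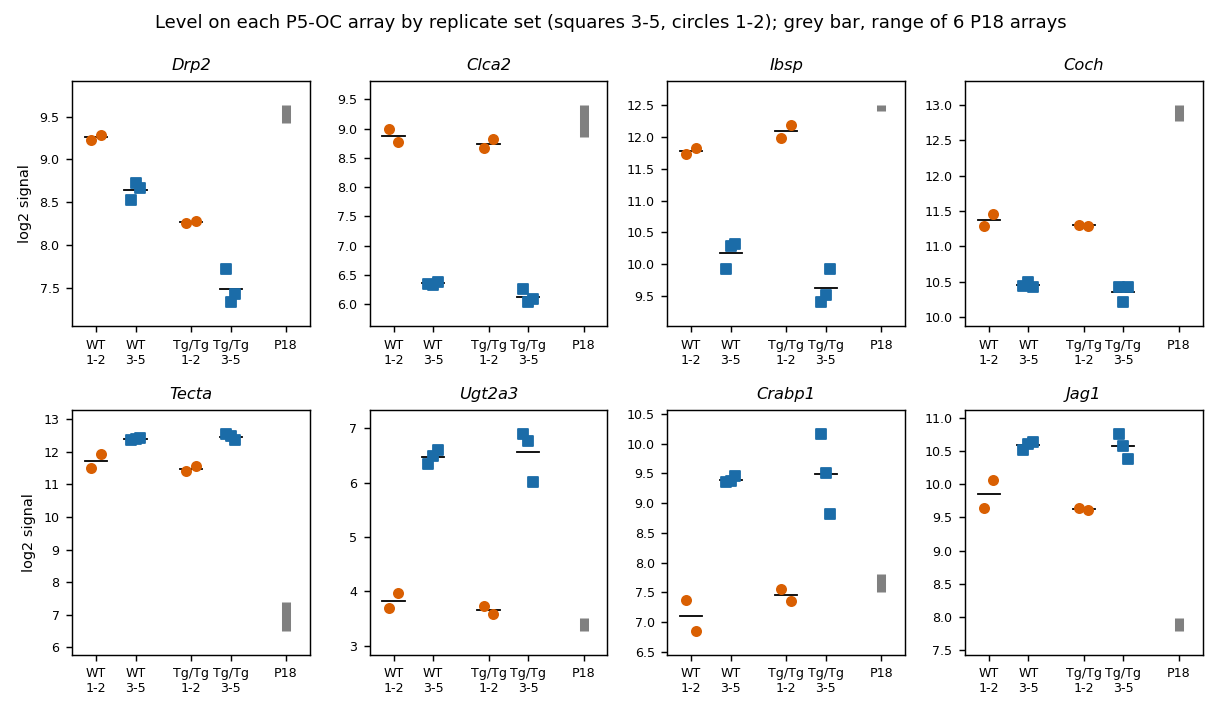
Log2 signal of 8 genes on each P5-OC array by genotype and replicate set, with the set mean as a black line and the range of the 6 P18 arrays as a grey bar; each panel has its own y axis, which does not start at 0. *Drp2*, *Clca2*, *Ibsp* and *Coch* are higher and *Tecta*, *Ugt2a3*, *Crabp1* and *Jag1* lower in replicates 1 and 2 of both genotypes, and *Drp2* is divided by genotype as well.

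Among nerve markers, 2 genes were called higher and 1 lower, beside 0.732% higher and 0.747% lower over all genes. *Drp2*, dystrophin-related protein 2, which joins the myelin of Schwann cells to the basal lamina, read 8.26 and 8.28 against 7.72, 7.33 and 7.42 in Tg1MDW/1MDW, and 9.23 and 9.29 against 8.52, 8.73 and 8.66 in WT. The sets did not overlap within a genotype but did across genotypes, since WT replicates 3 to 5 lay above Tg1MDW/1MDW replicates 1 and 2. The difference was 0.70 (standard error 0.09), or 1.63-fold. Like *Tecta*, *Drp2* was a marker by which the division was proposed. Of 18 myelin genes, *Drp2* and *Gldn* (gliomedin, which gathers sodium channels at nodes) were called higher, and the median was 0.20, at 0.38 in Tg1MDW/1MDW and 0.03 in WT. With no fold limit, 5 of the 18 lay higher and none lower without overlap, beside 4.14% and 6.75% of all genes. *Mbp* and *Pmp22*, major myelin proteins, differed by 0.17 and 0.16 and were not called.

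Genes of the Schwann cell lineage (17) gave no call and a median of -0.14. *Sox10*, the transcription factor of that lineage, differed by -0.30 (standard error 0.06) and *Ngfr*, the low-affinity neurotrophin receptor, by -0.32 (standard error 0.15). Of 32 genes of spiral ganglion and other neurons, 1 was called, *Dcx*, a microtubule protein of young neurons, at -0.63 (standard error 0.17), and the median was -0.04. Of the 17 lineage genes, 13 lay below 0, whereas 16 of the 18 myelin genes lay above it. The lists of nerve thus gave 2 higher calls and 1 lower among 18, 17 and 32 genes and did not differ in 1 direction.

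**Figure D4:**
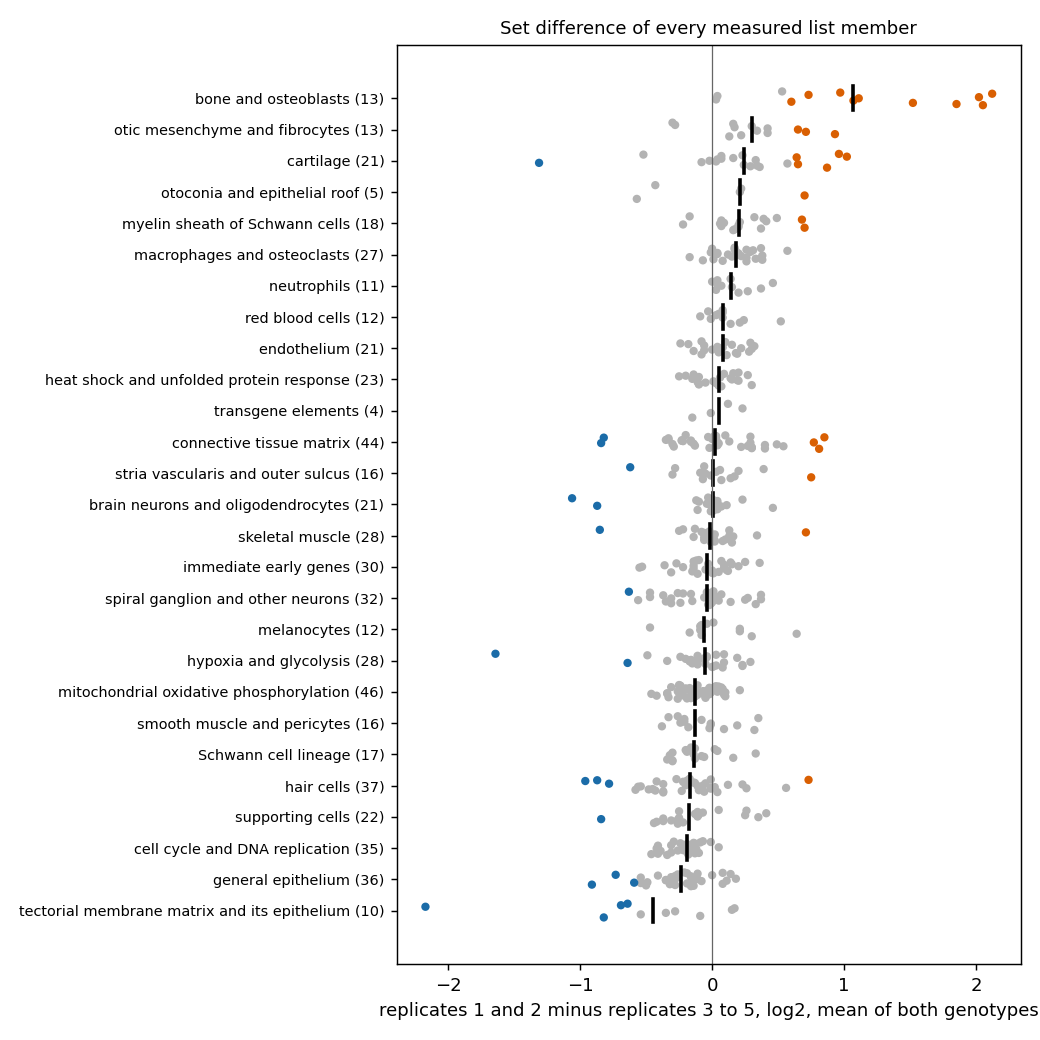
Difference between the sets (replicates 1 and 2 minus replicates 3 to 5, log2, x axis) of every measured member of 27 gene lists, with the number of members in parentheses and the list median as a black bar; orange and blue, called higher and lower, grey, not called. Bone and osteoblast genes lie farthest to the right with a median of 1.07 and tectorial membrane genes farthest to the left with a median of -0.44.

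Other tissues that the dissection could hold gave at most 2 calls in a list. Over all genes, 1.48% were called, so lists of 5 to 28 genes with even 1 call lie above that share. Genes of neutrophils, red blood cells, endothelium, and smooth muscle and pericytes gave none, with medians between -0.13 and 0.14. Neither did melanocyte genes (median -0.06), although the pigment enzyme *Dct* varied widely, from 6.19 to 8.63 in replicates 1 and 2 and from 5.51 to 7.98 in replicates 3 to 5. Stria vascularis and outer sulcus gave 1 call each way, with *Slc26a4*, which encodes the anion exchanger pendrin, at 0.75 and the proton pump subunit *Atp6v1b1* at -0.62. Among 5 genes of otoconia and the epithelial roof, *Otol1*, which encodes otolin, was called higher at 0.70, whereas *Oc90*, which encodes an otoconin, differed by -0.57. Skeletal muscle genes gave 1 call each way among 28 and a median of -0.02. Brain genes gave 2 lower calls among 21, *Aqp4* at -1.06 and *Gad1* at -0.87, and the water channel *Aqp4* is also expressed by cochlear supporting cells.

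Genes of cell state were not called either, with the exception of 2 genes of the hypoxia and glycolysis list, *P4ha2* and *Car9*. Of 35 cell cycle genes, 34 were below 0, with a median of -0.19 and no call. Tg1MDW/1MDW replicate 3 had the highest list mean, 7.43, and without it the median was -0.13. Genes of oxidative phosphorylation had a median of -0.13, which was -0.01 without WT replicate 2, the array with the lowest list mean. Immediate early genes and genes of heat shock and the unfolded protein response, both sensitive to handling, had medians of -0.04 and 0.05. Without WT replicate 1, 2 genes of oxidative phosphorylation were called lower. Their part in the differences was not tested.

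Whether the difference between the sets itself differed by genotype was tested across all probesets with limma on the 16 arrays. The level of Y-linked genes is partly confounded with this contrast and with genotype. In replicates 3 to 5 it was low on every Tg1MDW/1MDW array and high on every WT array. The median set difference of these genes was 2.72 in Tg1MDW/1MDW and -2.41 in WT. Of 34760 probesets, 1 (0.00288%) passed at an adjusted p under 0.05 by limma. An unadjusted p under 0.05 by limma was found for 1318, a smaller share than the 0.05 expected without any interaction. The gene is *Kcna1*, a potassium channel of juxtaparanodes in myelinated axons. It read 8.66 and 8.73 in Tg1MDW/1MDW replicates 1 and 2 against 7.84, 7.63 and 7.68 in replicates 3 to 5. In WT it read 9.75 and 9.68 against 9.79, 9.92 and 10.12. The difference in Tg1MDW/1MDW exceeded that in WT by 1.2 (standard error 0.14, adjusted p = 0.033 by limma). It was higher in replicates 1 and 2 of Tg1MDW/1MDW, and in WT both arrays of replicates 1 and 2 lay below all 3 of the others.

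The call on *Kcna1* did not hold in every fit. Taking the replicate number as a block, leaving out Tg1MDW/1MDW replicate 1, 2, 4 or 5 or WT replicate 2 or 4, fitting the P5 arrays alone, or adding the Y-linked level gave adjusted p-values from 0.11 to 1 by limma, against 0.0034 to 0.047 in the alternatives where it passed. The estimate was 1.11 to 1.28 in all of them. Without WT replicate 1, 105 probesets passed. The genes with the next smallest p-values were *Fa2h*, a fatty acid hydroxylase of myelin lipids (0.73, standard error 0.11, adjusted p = 0.27 by limma), *Cldn19*, a claudin of Schwann cell myelin (0.80, standard error 0.13, adjusted p = 0.31 by limma) and *Phospho1* (0.94, standard error 0.16, adjusted p = 0.31 by limma), followed by *Mir690* (0.84, standard error 0.16, adjusted p = 0.73 by limma). In the other direction, *Myof*, *Lypd2*, *Hmcn1* and *Thnsl2* gave -0.64 to -0.61 and adjusted p-values of 0.74 to 0.93 by limma, and *Cltrn* gave -1.1 (standard error 0.25, adjusted p = 0.96 by limma).

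**Figure D5:**
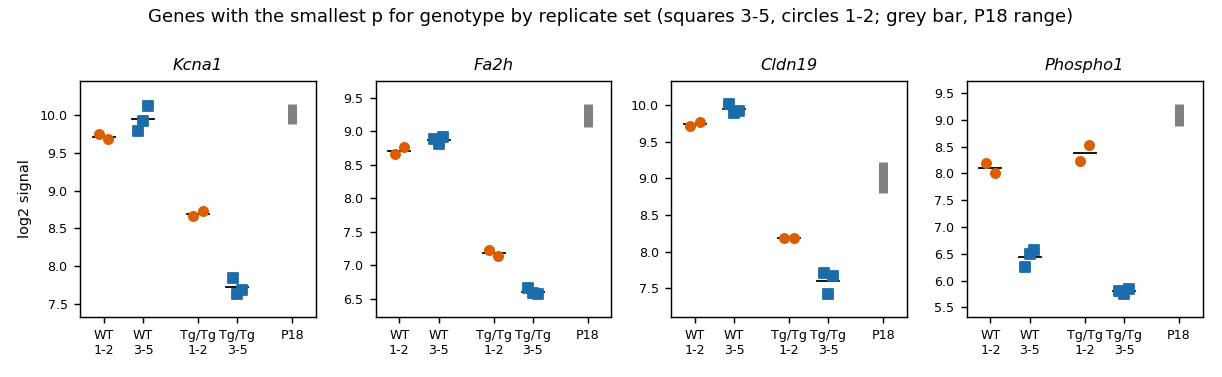
Log2 signal of the 4 genes named with the smallest p-values for the interaction of genotype and replicate set, on each P5-OC array, with set means as black lines and the P18 range as a grey bar; y axes do not start at 0. *Kcna1* in Tg1MDW/1MDW is 8.66 and 8.73 in replicates 1 and 2 and at most 7.84 in replicates 3 to 5, whereas in WT the sets lie close together at 9.68 to 10.12.

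The effect of genotype at P5 was refitted with a term for the set. Because each set holds equal numbers of both genotypes, the term left every genotype estimate unchanged and altered only its error. The ratio of standard errors with and without the term had a median of 0.985 over all probesets and 0.497 over those called between the sets. Since the sets were chosen on these values, the smaller errors are no independent evidence. At an adjusted p under 0.05 and 2-fold, 35 probesets (0.101%) passed with the term, 6 higher and 29 lower in Tg1MDW/1MDW, and 34 (0.0978%) without it, all 34 among the 35. Without a fold limit, 325 (0.935%) passed with the term, 42 higher and 283 lower, and 212 (0.61%) without it, all of them among the 325.

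*Drp2* was lower in Tg1MDW/1MDW by 1.08 (log2 change -1.08, standard error 0.08, adjusted p = 1.7e-06 by limma) with the set term, and with a standard error of 0.19 and an adjusted p = 0.012 by limma without it. The division was proposed with *Drp2* as a marker, so its smaller error and p-value with the set term are no independent evidence. *Gldn* changed by -1.81 (standard error 0.13, adjusted p = 2.5e-06 by limma), against a standard error of 0.22 without the term. Among genes not called between the sets, *Pmp2*, a lipid-binding myelin protein (-2.91), *Slc9a3*, a sodium proton exchanger (-1.94) and *Rwdd2a* (2.44) had standard errors of 0.16, 0.09 and 0.12 with the term and 0.19, 0.10 and 0.16 without it. Among the 113 probesets that passed only with the term, the smallest adjusted p-values of named genes were 0.00092 to 0.0039 by limma. These genes were *Sp100*, a nuclear body protein (-0.36), *Tecrl* (0.97), *Slc7a2*, an arginine transporter (-0.47), *Mgll*, monoglyceride lipase (-0.45) and *S100a6*, a calcium-binding protein (-0.86). *Tecrl* and *S100a6* were also called between the sets (-0.70 and -0.61), so their smaller errors with the term are no independent evidence either.

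*Sp100* read 5.29 and 5.3 in Tg1MDW/1MDW replicates 1 and 2 and 5.67 and 5.66 in WT, and 4.94, 5.03 and 4.96 against 5.32, 5.33 and 5.35 in replicates 3 to 5. All 5 Tg1MDW/1MDW arrays lay below all 5 WT arrays, and the gap was wider within each set than over both. The count of genotype calls without a fold limit moved widely by array. It was 3610 without Tg1MDW/1MDW replicate 3, 958 without WT replicate 1 and 181 to 301 without any other array. When the level of Y-linked genes, which was uneven between the genotypes, was added to the fit, it was 108.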

How the data were processed

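RNA had been hybridised to 16 MoGene 1.0 arrays, 1 per sample. The authors deposited normalized log2 signals of 34760 probesets, and the background correction and normalization are not given in the sources used here. The submitters' processing notes name limma. The number of arrays limits the precision. Samples were grouped by their titles, which other label fields contradict in age, tissue or genotype. The platform table names 21640 probesets with 1 gene and 1321 with several, 11799 have no name here, and the brightest probeset stood for a gene in lists.

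The set difference was computed in Python 3.11.15 with pandas 2.3.3 and has no test. Tests of genotype and of its interaction with set used limma 3.58.1 (lmFit, eBayes; statmod 1.5.0) under R 4.3.3 on all 16 arrays, two-sided, adjusted by Benjamini and Hochberg over all probesets, and the scripts were tested on simulated data. Members, lists and tests were chosen with earlier results of these data known. Named genes are *Drp2*, *Tecta*, the 15 largest called differences each way, up to 4 members of a list and the largest the other way, 5 interaction genes each way, 5 genotype calls gained, and transgene elements. Other list members named were chosen after their values were seen, as were the lists of the closing section and the mineralisation enzymes. Alternatives were fold limits, normalization, dim or unnamed probesets left out, a replicate block, Y-linked level, variance models and each array left out. Plots were drawn with matplotlib 3.10.9.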

Additional observations from a re-analysis of the deposited data

Results flagged for a closer look

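The set difference of *Kcna1* in Tg1MDW/1MDW minus that in WT was 1.2, a difference between genotypes by the interaction test, as given above.

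List means and named genes were also examined for a single array far from the other 4 of its genotype at P5, by the gap to the nearest array over the range. Of 122 groups of 5 arrays examined, 11 held such an array. Chance gives about 1 in 20 where the 5 arrays are not divided into sets. All 11 were list means. Many named genes were picked by their difference between the sets, which leaves little room for such a gap. In WT replicate 2, the ratio was 0.74 for myelin genes (9.44, others 9.29 to 9.33), 0.76 for smooth muscle and pericytes (7.29, others 7.47 to 7.53), 0.78 for brain genes (5.70, others 5.82 to 5.86), 0.82 for oxidative phosphorylation (9.36, others 9.70 to 9.78) and 0.73 for neuropeptides and granins (5.68, others 5.88 to 5.95). In WT replicate 1, it was 0.84 for stria vascularis and outer sulcus (8.06, others 7.66 to 7.72), 0.71 for endothelium (8.2, others 8.05 to 8.09) and 0.79 for small leucine-rich proteoglycans (8.98, others 8.54 to 8.63). In Tg1MDW/1MDW replicate 2, it was 0.83 for stria vascularis and outer sulcus (7.73, others 7.95 to 8.0). In Tg1MDW/1MDW replicate 3, it was 0.74 for cell cycle genes (7.43, others 6.94 to 7.07) and 0.72 for the insulin-like growth factor axis (9.02, others 8.87 to 8.91). The bone, cartilage, tectorial membrane and epithelial lists held no such array. Where the sets lie apart within a genotype, the gap between them takes up much of the range. An array can then hardly be flagged, so nothing follows from the lack of a flag in such lists.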

How the results depend on the processing

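Of the counts of called probesets between the sets (267 higher, 181 lower), a 2-fold limit gave 67 and 27, the 1.5-fold limit alone 605 and 213, the same adjusted for the level of Y-linked genes 606 higher, Tg1MDW/1MDW alone 559 and 292, and WT alone 704 and 389. Leaving out the dimmest 50% of probesets gave 172 higher and named probesets only 154 higher. Leaving out 1 array gave 265 to 446 higher and 146 to 278 lower, the most without Tg1MDW/1MDW replicate 5 and without WT replicate 1. Fewer arrays make the rule on overlap easier to meet. Of the 448 calls, 380 to 441 were kept without 1 array and 429 after repeated quantile normalization, which gave 278 and 182. Without 1 array, a call could be lost only through the fold limit. Other alternatives moved these counts by less than 1.5 times. No called gene named here changed direction, but the rule on overlap fixes this when an array or a genotype is left out. Of the alternatives run on single genes, only the repeated normalization could have reversed a direction.

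For the interaction, no probeset passed with the P5 arrays only or with the Y-linked level (0 each), and leaving out 1 array gave 0 to 105. At 2-fold, 35 genotype calls became 82 with array weights, 112 at 1.5-fold and 325 with no fold limit, and 31 to 109 without 1 array, with 109 without Tg1MDW/1MDW replicate 3 and 60 without WT replicate 1. With no fold limit, 325 became 106 with the P5 arrays only, 1319 with array weights, 556 without the dimmest probesets, 108 with the Y-linked level, 212 with no set term, and 181 to 3610 without 1 array. The cause of these shifts was not tested, beyond the smaller number of arrays or probesets.

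Replicate numbers do not pair the samples by any label. The correlation of same-numbered arrays was 0.29, 0.36, -0.11, 0.20 and -0.22, and 4 of 10 arrays correlated best with their own number. With a replicate block, the interaction gave 0 calls and the genotype fit 36 at 2-fold and 393 without a limit, and the set counts stayed at 267 and 181 (block correlation -0.0507).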

Other observations

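The lists given here were drawn up after the values were seen, and nothing rests on their counts. Genes of thyroid hormone transport and signalling gave 3 higher and 4 lower calls among 18 measured, with a median of -0.06. *Dio2*, the deiodinase that makes the active hormone, read 11.54 and 11.53 in Tg1MDW/1MDW replicates 1 and 2 against 9.91, 10.10 and 10.39, and 11.37 and 11.40 in WT against 10.19, 10.43 and 10.47. It was higher by 1.21 (standard error 0.12). The transporters *Slco1c1* and *Slc16a10* were higher by 0.86 (standard error 0.10) and 0.67 (standard error 0.10). *Trh*, *Trhr*, the carrier *Ttr* and *Crym*, which encodes a cytosolic thyroid hormone binding protein, differed by -0.69, -0.62, -0.73 and -0.60. *Trhr* was below 5 on every P5 array. The receptors *Thra* and *Thrb* were not called.

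Retinoid genes were called in both directions (2 higher, 3 lower of 14), with *Aldh1a1*, an enzyme that makes retinoic acid, at 0.72 (standard error 0.08), *Rbp4* at 0.69 (standard error 0.17), and *Crabp2* and *Cyp26b1*, which binds and which degrades it, at -0.79 (standard error 0.18) and -0.72 (standard error 0.08), besides *Crabp1*. Carbonic anhydrases and bicarbonate transporters gave 5 higher and 1 lower call of 19. *Slc4a10*, a sodium bicarbonate transporter, read 6.72 and 6.6 against 5.58, 5.03 and 5.59 in Tg1MDW/1MDW, and 6.83 and 6.81 against 5.59, 5.60 and 6.05 in WT, and 10.79 to 11.31 at P18. *Car13* differed by 0.89 (standard error 0.07) and *Car9* by -0.64 (standard error 0.12). Small leucine-rich proteoglycans gave 5 higher calls (*Omd*, *Kera*, *Chad*, *Ogn* and *Ecm2*) and 1 lower (*Podn*) of 16. *Omd*, osteomodulin, differed by 1.39 (standard error 0.23) and *Kera*, keratocan, by 1.35 (standard error 0.27). The abundant members *Dcn* and *Bgn* were not called. Of 19 neuropeptides and granins, *Scg2* was called higher, and *Penk*, proenkephalin, and *Npy*, neuropeptide Y, were called lower at -1.44 (standard error 0.18) and -0.91 (standard error 0.14). The insulin-like growth factor axis gave 1 call each way of 16, and collagen hydroxylation and crosslinking 1 higher and 2 lower of 15.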
